A study of Mus musculus with 27 samples.

Results

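Switch junctions of cells lacking both XLF and PAXX were set against those of cells lacking DNA ligase 4 in CH12F3, a mouse B-lymphoma line that switches from IgM to IgA in culture. The comparison took the 12 libraries of these genotypes out of the 27 of the series, chosen by genotype label alone. They were 6 libraries of XLF-/-PAXX-/- (3 each of clones 1 and 2) and 6 of Ligase4-/- (3 each of clones 1 and 2). All cells had been stimulated for 72 h with IL-4, αCD40 and TGFβ before DNA was taken, and the unmutated CH12F3 parent (WT, 3 libraries) had the same treatment. Both double-mutant clones were made from a single PAXX-/- clone (which of them the labels do not say), 1 of the Ligase4-/- clones was made from the parental line, and the other came from another laboratory. The assay, LAM-HTGTS (high-throughput translocation sequencing by linear amplification), primes at a fixed bait near the Iμ promoter and reads across the break into the DNA joined to it, the prey.

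Class-switch recombination deletes the DNA between the switch region Sμ and a downstream switch region, here Sα, after activation-induced deaminase (AID) has led to breaks in both. AID deaminates cytosines, often within AGCT. The ends are usually joined by classical non-homologous end joining. DNA ligase 4 is the ligase of that pathway and seals the strands, while XLF and PAXX are accessory factors that help hold Ku, XRCC4 and the ligase at the ends. Without the pathway, switch ends can still be joined by alternative end joining, which often pairs a few shared bases, a microhomology. Losing the ligase removes the sealing step itself, whereas losing XLF and PAXX removes proteins that stabilise the complex, and comparing the junctions of these genotypes asks how alike the remaining joins are.

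The 12 libraries held 108914 junctions, 49215 in the double mutant (5309 to 9979 per library) and 59699 in Ligase4-/- (5811 to 14524 per library). Of these, 21751 and 23706 lay in the Sα window, 114489501 to 114509500 on chromosome 12 (mm9). The unit of every test was the library, compared 6 against 6 by an exact two-sided permutation test, with the clone values beside it. The double-mutant libraries came from 1 sequencing run and the Ligase4-/- libraries from 4, with 0 runs in common. In every difference below, the run cannot be told apart from the genotype. Because libraries of 1 clone share that clone, and nothing in the labels says that they came from separate cultures, the p-values speak to libraries rather than clones. A comparison of clone means, 2 against 2, cannot give an exact permutation p below 0.333.

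The bait and 6 of the junctions found in both genotypes are shown so that the joint classes can be seen as sequence. The bait spans 114664780 to 114664913 (134 bases, read on the minus strand), and its 2 AGCT motifs, at bait positions 68 to 71 and 89 to 92 counted from its first base, are in capitals.

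bait: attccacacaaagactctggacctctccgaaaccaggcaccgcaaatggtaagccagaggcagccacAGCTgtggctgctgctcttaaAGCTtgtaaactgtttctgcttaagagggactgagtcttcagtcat

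The junctions run from bait on the left to Sα on the right. They are those most frequent in the lower of the 2 genotypes for each class. Capitals mark the bases on each side of a direct join, the bases shared by bait and prey in a microhomology join, and the inserted bases, found in neither alignment, in an insertion join.

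direct junction 1: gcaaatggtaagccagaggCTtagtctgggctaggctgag
direct junction 2: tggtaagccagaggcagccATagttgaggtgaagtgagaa
microhomology junction 1: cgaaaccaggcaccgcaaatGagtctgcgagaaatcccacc
microhomology junction 2: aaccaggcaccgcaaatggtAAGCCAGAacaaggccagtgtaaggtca
insertion junction 1: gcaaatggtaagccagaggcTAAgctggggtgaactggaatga
insertion junction 2: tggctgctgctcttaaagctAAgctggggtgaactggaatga

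Both microhomology junctions, at Sα positions 114498448 (1 shared base) and 114498979 (8 shared bases), were present in 6 of 6 double-mutant and 6 of 6 Ligase4-/- libraries. The direct junctions recurred far less, each with 1 double-mutant and 2 Ligase4-/- reads, which for direct junction 1 came from 1 library. Microhomology junction 1 was in all 27 libraries of the series, WT included, on 28 lines. Whether it arose separately in each was not tested. Picked as the most frequent, these junctions do not show how often a class recurs. Both insertion junctions entered Sα at 114500098, one with 3 and one with 2 inserted bases, and each was on 2 lines in either genotype, with the printed sequence in 3 of the 4 reads.

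The types of join made at Sα were close to the same in the 2 genotypes and far from WT. Direct joins, where bait and prey abut with no base shared or added, ranged from 5.42% to 6.19% of Sα junctions in the double-mutant libraries (median 5.89%) and from 5.44% to 8.20% in Ligase4-/- (median 6.03%), and the ranges overlapped. WT had 18.4% ± 0.206 (SD, n = 3 libraries). In the double-mutant libraries the microhomology share ranged from 70.1% to 72.1% (median 70.9%). In Ligase4-/- it ranged from 69.8% to 77.9% (median 73.0%), so that the double-mutant range lay wholly inside it. Neither difference passed after adjustment (exact permutation adjusted p = 0.589 and 0.150), and their 95% intervals were -1.37 to 0.289 points for direct and -5.25 to 0.0267 for microhomology joins. The double-mutant range of each was narrower than that of Ligase4-/-, where clone 1 averaged 71.9% ± 1.91 and clone 2 75.2% ± 2.79 microhomology joins (SD, n = 3 libraries each).

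**Figure D1:**
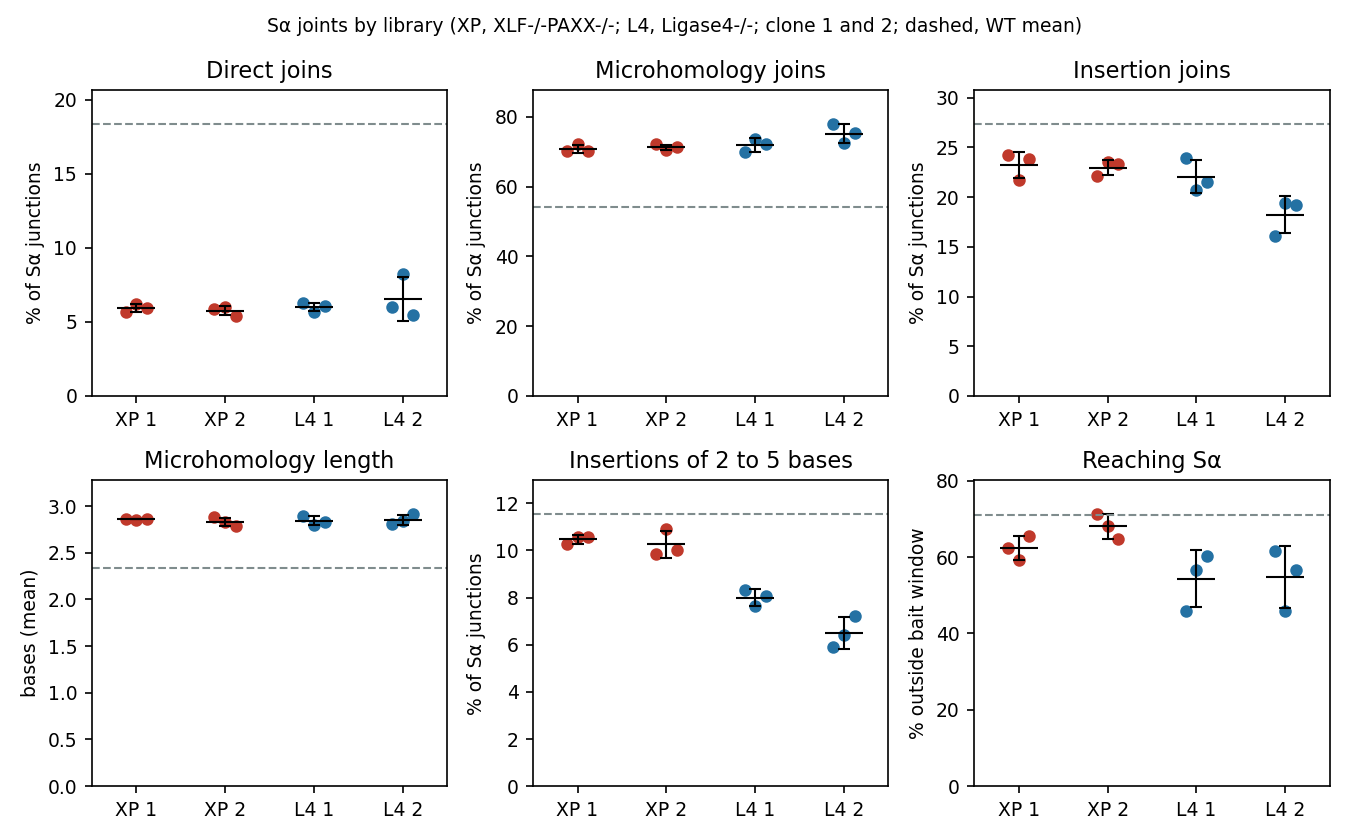
Each panel gives 1 measure of Sα junctions (y axis, percent or bases, from 0) by clone of XLF-/-PAXX-/- (XP) and Ligase4-/- (L4), with a point per library, bars for the clone mean ± SD over 3 libraries and a dashed line at the WT mean. Direct joins were at 5.42% to 8.20% in the 12 mutant libraries against 18.4% in WT, and insertions of 2 to 5 bases were at 9.86% to 10.9% in the double mutant against 5.89% to 8.32% in Ligase4-/-.

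The length of shared bases followed the same profile in both. Joins with 2 shared bases were the largest class, 22.3% ± 0.673 of Sα junctions in the double mutant and 23.2% ± 1.79 in Ligase4-/- (SD, n = 6 libraries each), against 15.5% ± 0.857 in WT (n = 3). In WT the largest microhomology class was 1 base, at 18.9%, where the double mutant had 11.3% and Ligase4-/- 11.4%. Joins with 6 or more shared bases made up 3.04% and 2.98%, and 1.2% in WT. The mean length of a microhomology was 2.84 bases in the double mutant and 2.85 in Ligase4-/-, with library ranges of 2.79 to 2.88 and 2.80 to 2.91. The 95% interval of the difference, -0.0546 to 0.0492 bases (exact permutation p = 0.894), holds no difference as large as that of either genotype from WT, which was at 2.33.

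**Figure D2:**
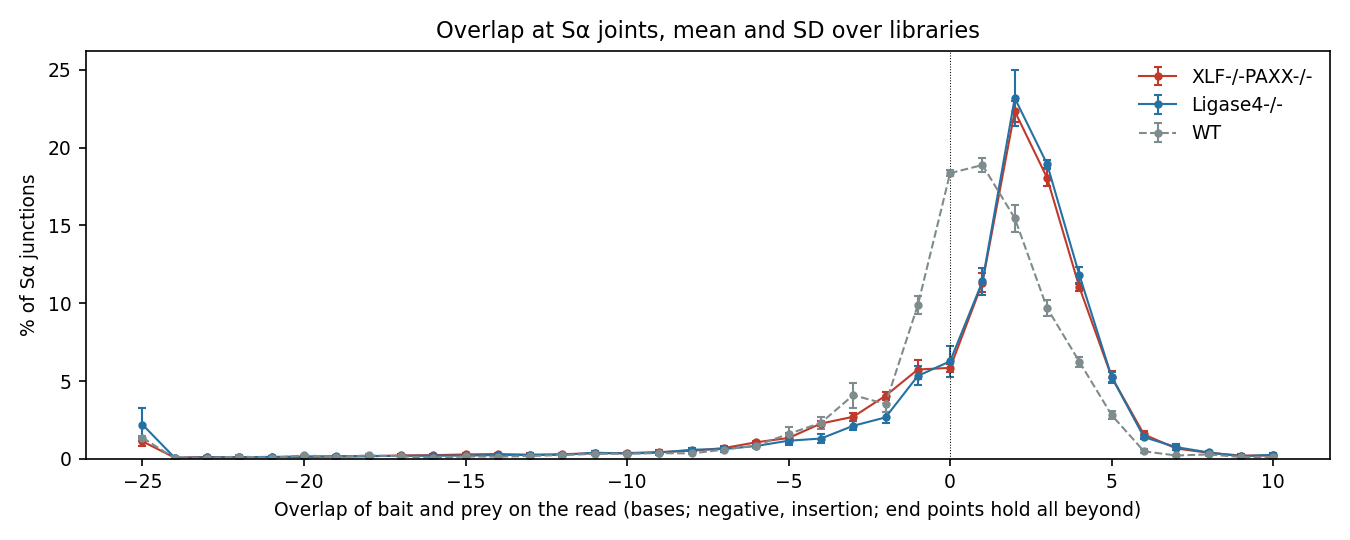
Percent of Sα junctions (y axis) at each overlap of bait and prey in bases (x axis; above 0 microhomology, 0 direct, below 0 insertion), as means with SD over the 6 libraries of XLF-/-PAXX-/-, the 6 of Ligase4-/- and the 3 of WT; each end point holds all overlaps beyond it. Both mutant lines peak at 2 shared bases (22.3% and 23.2%), WT at 1 (18.9%), and the mutant lines part most at short insertions.

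Out of 47 measures of joint structure, position and destination, 9 passed after Benjamini-Hochberg adjustment over all 47 (19.1%), 6 higher in the double mutant (12.8%) and 3 higher in Ligase4-/- (6.38%). Before adjustment 15 passed (31.9%). Libraries of the 2 genotypes did not overlap in 3 of the 47 (6.38%). Of the microhomology classes, 3 shared bases (18.1% ± 0.543 against 18.95% ± 0.245) and 4 shared bases (11.03% ± 0.223 against 11.8% ± 0.493) were lower in the double mutant, by 0.891 and 0.782 points (exact permutation adjusted p = 0.0407 and 0.0436). Both differences changed sign among bait ends up to position 60 (0.419 and 0.493 points) and with bait ends 60 to 80 left out (0.408 and 0.170), and with clone as a random block neither passed (limma, adjusted p = 0.502 and 0.401). Classes of 1, 2, 5 and 6 or more shared bases did not pass.

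The class of join that separated the libraries was the short insertion. Insertions of 2 to 5 bases were at 10.3%, 10.6% and 10.6% in libraries 1 to 3 of double-mutant clone 1 and 9.86%, 10.9% and 10.0% in those of clone 2. Ligase4-/- clone 1 had 8.32%, 7.63% and 8.05%, and clone 2 had 5.89%, 6.40% and 7.21%. Every double-mutant library was above every Ligase4-/- library. The means were 10.4% ± 0.390 and 7.25% ± 0.949 (SD, n = 6 each), a difference of 3.11 points (95% interval 2.21 to 4.07, exact permutation p = 0.00216, the smallest that 6 against 6 libraries can give, adjusted p = 0.0339). WT was above both, at 11.5% ± 0.795.

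Insertions of other lengths did not pass. Those of 1 base made up 5.74% and 5.33% of Sα junctions, those of 6 to 20 bases 5.49% and 4.99%, and unaligned stretches of 21 or more bases 1.52% and 2.59%, where Ligase4-/- clone 1 library 1 alone had 4.87%. The total insertion share of 23.1% against 20.2% did not pass either (exact permutation adjusted p = 0.0861). Without Ligase4-/- clone 1 library 1 it did, at a difference of 3.70 points, and so did the microhomology share, at -3.28.

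Much of the difference in short insertions lay at 1 place in the bait. Both double-mutant clones carried a C-to-T change at bait position 70 (C70T), the cytosine of the first AGCT motif in the sequence above. It was in 37.7% ± 1.12 of bait alignments that spanned the position in clone 1 and 42.8% ± 1.01 in clone 2 (SD, n = 3 libraries each). The Ligase4-/- clones had it in 0.284% and 0.255%, and WT in 0.498%. Among the single mutants, PAXX-/- clone 2 had it in 40.0% ± 0.201, PAXX-/- clone 1 in 0.779% and the XLF-/- clones in 0.344% and 0.376%. PAXX-/- clone 2 also had G69A in 51.0% of alignments, which both double-mutant clones had in 0.308% and 0.283%.

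At the base before this change, bait alignments stopped much more often in the double mutant. Bait end 69 was the last aligned bait base of 8.64%, 9.16% and 9.53% of Sα junctions in double-mutant clone 1 and 10.4%, 10.1% and 9.85% in clone 2. In Ligase4-/- it was that of 2.07%, 2.22% and 2.75% in clone 1 and 2.32%, 2.25% and 2.45% in clone 2. The groups were far apart, with a difference of 7.27 points (95% interval 6.63 to 7.89, exact permutation p = 0.00216, adjusted p = 0.0152). WT stood between, at 3.91% ± 0.211 (n = 3). PAXX-/- clone 2, with C70T in 40.0% and G69A in 51.0% of alignments, was at 4.68% ± 0.625. PAXX-/- clone 1, with little of either change, was at 3.19% ± 0.303 (SD, n = 3 each). The other C70T carrier thus lay much nearer to WT than to the double mutant. Whether either change moved the bait ends was not tested.

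**Figure D3:**
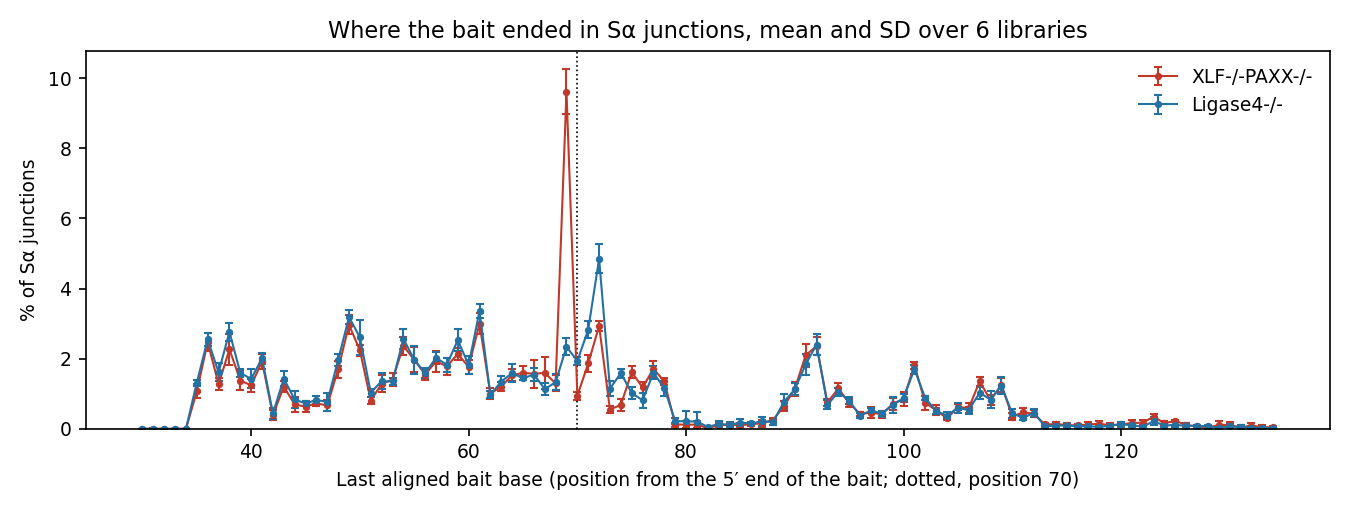
Percent of Sα junctions (y axis) whose bait alignment ends at each bait position (x axis, bases from the first bait base), as means with SD over the 6 XLF-/-PAXX-/- and the 6 Ligase4-/- libraries. The profiles part most around position 70, where the double mutant rises to 9.61% at position 69 against 2.34% in Ligase4-/- and lies below it at positions 70 to 74.

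Of 42 bait ends with enough junctions to test, 7 passed (16.7%), 3 of them higher in the double mutant (7.14%) and 4 higher in Ligase4-/- (9.52%). Before adjustment 14 passed (33.3%), and 6 had libraries that did not overlap (14.3%). The 5 with the largest differences were neighbours. Besides position 69, they were positions 72 (2.93% against 4.85%), 70 (0.946% against 1.94%), 71 (1.86% against 2.83%) and 74 (0.685% against 1.59%), all lower in the double mutant and all at the smallest exact permutation p (adjusted p = 0.0152). The other two, named here after their values were seen, were positions 75 (1.62% against 1.02%) and 107 (1.35% against 1.03%), both higher in the double mutant. The second AGCT motif took a similar share of bait ends in both genotypes, 6.24% ± 0.389 and 6.13% ± 0.179. The first took 13.7% ± 0.676 in the double mutant, 8.43% ± 0.491 in Ligase4-/- and 12.9% ± 0.574 in WT. Position 69, the base before C70T, alone held 9.61%, 2.34% and 3.91% in the same order. The sum for the double mutant therefore holds many alignments that stopped before the substituted base. These motif sums were not tested.

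The joins at bait end 69 had their own structure. In the double mutant 60.2% ± 3.72 of them were insertions (library range 54.2% to 63.7%), against 23.0% ± 4.30 in Ligase4-/- (17.1% to 29.9%). The first base after the aligned bait, where the unsubstituted bait has a C, was a T in 80.9% ± 1.95 of double-mutant reads and 34.5% ± 5.14 of Ligase4-/- reads. Away from this bait end, insertions of 2 to 5 bases were in 7.97% ± 0.423 of Sα junctions in the double mutant and 7.27% ± 0.927 in Ligase4-/-, ranges that overlapped (7.39% to 8.66% and 5.90% to 8.38%). In the double mutant 15.3% and 17.3% of insertions by clone equalled the continued bait with 1 base changed, against 5.98% and 6.94% in the Ligase4-/- clones. WT had 18.5% without C70T. Any insertion of 2 or more bases with 1 mismatch to the bait counted, and how often that arises by chance was not tested. At bait end 69 alone, such insertions made up 2.34% and 2.53% of Sα junctions in the double-mutant clones. They made up 0.0416% and 0.0260% in the Ligase4-/- clones and 0.116% in WT. PAXX-/- clone 2, which also carried C70T, had 0.944%, and PAXX-/- clone 1 had 0.0734%.

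Bait alignments that stopped at position 69 were then carried on through a following T, in the double-mutant clones only, as these carried C70T. Ligase4-/- reads, which had a T there in 34.5% of cases, were left as deposited. The re-reading can only shorten insertions or lengthen overlaps, and it shifts the double mutant alone. With it, the excess of short insertions in the double mutant was 0.804 points and no longer passed (exact permutation adjusted p = 0.400). Over all Sα junctions the insertion difference then changed sign to -0.873 points and that of the microhomology share to 1.32 points, and 0 of 47 measures passed by the exact permutation test, against 7 before adjustment. The same happened with bait ends from 60 to 80 left out, where the insertion difference was -1.29 points and the microhomology difference 2.00, neither of which passed. Both settings were chosen after seeing the data. Among bait ends up to position 60 alone, the short insertions differed by 0.397 points (exact permutation adjusted p = 0.561).

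With bait alignments as deposited, their mean length was 64.5 ± 0.859 bases in the double mutant and 62.7 ± 0.80 in Ligase4-/- (SD, n = 6 each). The lowest double-mutant library (63.348) was only just above the highest Ligase4-/- library (63.344), and the difference was 1.85 bases (95% interval 0.791 to 2.89, exact permutation adjusted p = 0.0339). It was 2.04 bases after the alignments were carried on through the substituted base, where it did not pass after adjustment (adjusted p = 0.0814). It was 0.760 among bait ends up to position 60 (adjusted p = 0.292).

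Along Sα, the shares of deletional junctions gave no difference that passed. The core, 114496668 to 114502828, is the shortest interval with 90% of Sα junctions over all clones of the series. Of deletional junctions, the orientation of a completed switch, 9.98% ± 1.04 lay beyond the core edge far from the bait in the double mutant and 8.80% ± 1.74 in Ligase4-/-, against 2.72% in WT. The median deletional junction lay 3615 ± 54.4 bp and 3583 ± 200.8 bp inside the near edge, and 2737 bp in WT. Deletional junctions made up 83.6% ± 0.940 and 84.9% ± 1.60 of Sα junctions, where WT had 95.3%. None of these differences passed after adjustment.

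Inversional junctions, which keep the intervening DNA in reverse, lay more often at the near edge in the double mutant, by a call that 1 library could end. Beyond the core edge near the bait lay 22.2%, 21.9% and 18.4% of them in the libraries of double-mutant clone 1 and 21.4%, 22.5% and 21.6% in clone 2. Ligase4-/- clone 1 had 19.5%, 13.8% and 17.1%, and clone 2 had 19.4%, 15.2% and 18.8%. Only double-mutant clone 1 library 3 fell within the Ligase4-/- range. The difference of 4.04 points (95% interval 1.44 to 6.66, exact permutation adjusted p = 0.0452) was 1.73 points in a 10-kb Sα window and did not pass there. It also did not pass in 9 of the 12 sets that left out 1 library, the exceptions being those without double-mutant clone 1 library 3, Ligase4-/- clone 1 library 1 or Ligase4-/- clone 2 library 1. WT, with 85 to 99 inversional junctions per library, had 1.42% ± 1.56.

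The joins were also counted inside and outside the core, without a test between these parts. In the core, deletional joins were direct in 5.94% and 6.51% of cases, had microhomology in 69.8% and 72.5% and insertions in 24.2% and 20.99%. Outside it they were direct in 5.48% and 5.47% and had microhomology in 72.5% and 77.1%. The direct share of inversional joins was 5.68% and 5.46%. Insertions at deletional joins outside the core were at 22.0% ± 1.35 in the double mutant and 17.4% ± 2.54 in Ligase4-/-, with libraries apart (20.7% to 24.6% and 13.6% to 20.4%, difference 4.56, exact permutation adjusted p = 0.0339). After the bait was carried on through the substituted base, this difference was -0.621 points and did not pass.

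**Figure D4:**
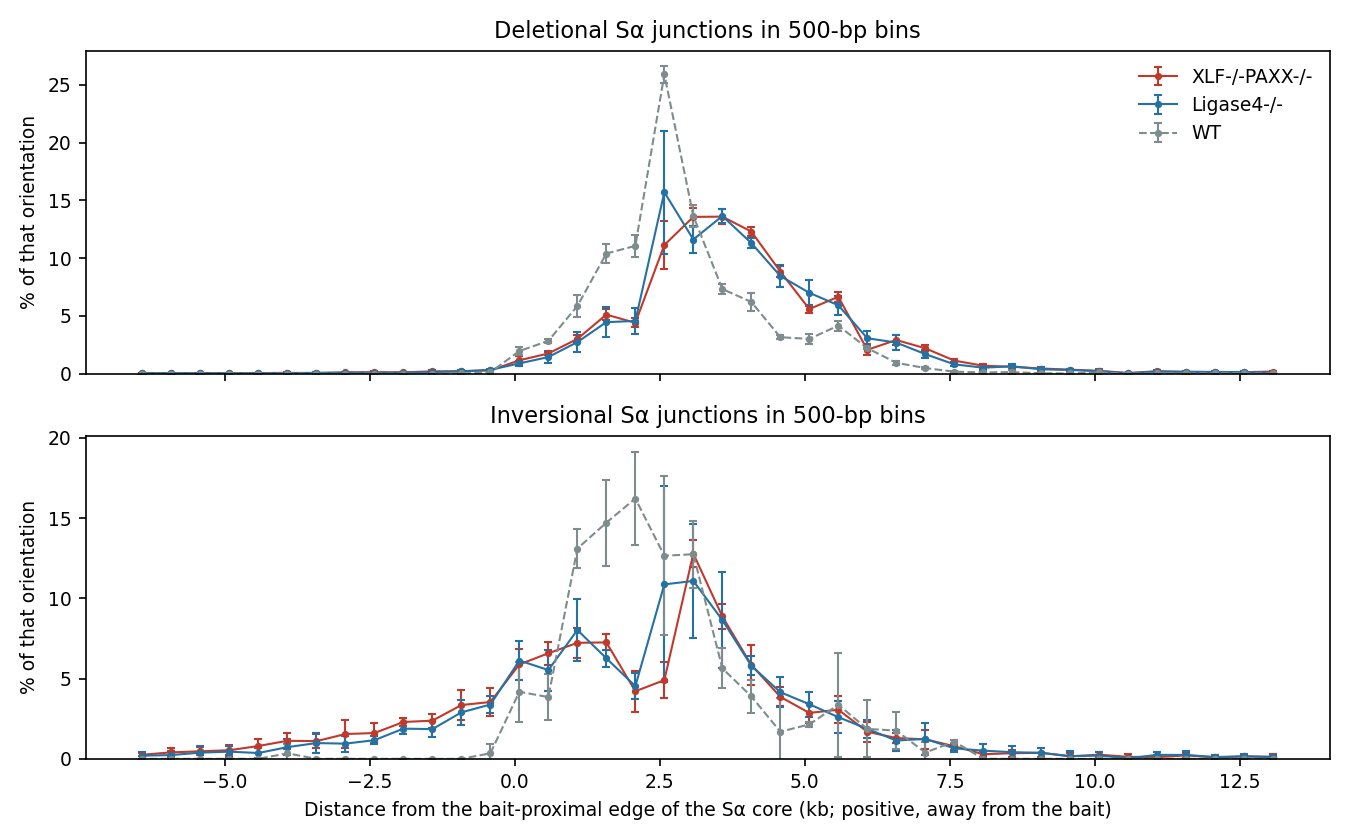
Percent of deletional and of inversional Sα junctions (y axes) in 500-bp bins by distance from the core edge near the bait (x axis, kb), means with SD over the 6 XLF-/-PAXX-/-, 6 Ligase4-/- and 3 WT libraries. The mutant profiles overlap over most bins; the wide Ligase4-/- bars at the bin of 114500001 to 114500500 come from clones at 20.4% to 20.8% and 10.3% to 11.4% of deletional junctions.

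In bins of 500 bp, 0 of 43 passed by the exact permutation test (0%), and 10 did before adjustment (23.3%). The widest gap there was within Ligase4-/-. The bin from 114500001 to 114500500, named after its values were seen, held 20.6%, 20.8% and 20.4% of deletional junctions in the libraries of Ligase4-/- clone 1. Clone 2 had 10.8%, 11.4% and 10.3%. The double-mutant clones ranged from 9.04% to 10.1% and from 11.9% to 14.3%. Inversional junctions in that bin were at 12.9% to 18.9% in Ligase4-/- clone 1, 3.98% to 7.84% in clone 2 and 3.63% to 6.80% in the double mutant. Clone 1 libraries of Ligase4-/- came from 3 runs and clone 2 libraries from 1 other run, so clone and run cannot be told apart in this difference.

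The double mutant had more of its junctions at Sα and near the bait and fewer between them, by calls that were not firm. Of those outside the bait window (10 kb to each side of the bait), the Sα share was 65.2% ± 4.22 in the double mutant (59.3% to 71.2%) and 54.6% ± 6.96 in Ligase4-/- (45.9% to 61.7%), where WT had 70.9%. The difference was 10.6 points (exact permutation adjusted p = 0.0452). The bait window itself held 31.9% ± 1.37 and 27.7% ± 2.32 of all junctions, with ranges of 29.8% to 34.0% and 25.4% to 31.3% (difference 4.19, exact permutation adjusted p = 0.0436). The stretch between the windows, 114509501 to 114654779, held 2.75% ± 0.609 and 4.74% ± 0.706 of junctions outside the bait window (adjusted p = 0.0407 by the exact permutation test). Other chromosomes held 25.1% ± 4.54 and 33.5% ± 7.70, which did not pass (adjusted p = 0.124). With clone as a random block the Sα share and the bait-window share did not pass (limma, adjusted p = 0.189 for each), and they lost their call in 20 and 21 of 28 alternatives. The Sα share kept its call without double-mutant clone 1 library 2, Ligase4-/- clone 1 library 1 or 3 or Ligase4-/- clone 2 library 1 and lost it without each of the other 8 libraries. The bait-window share lost it without those 8 and without Ligase4-/- clone 1 library 3. The share between the windows lost its call in 15 of 28 alternatives, among them 5 of the 12 sets without 1 library. These tallies include clone means, where no exact permutation p can be below 0.333 and every call is lost. They also include sets without 1 clone, where it cannot be below 0.0119.

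Most of the gap between the windows lay in 1 stretch of 10 kb. From 114599501 to 114609500 the double-mutant libraries had 14, 14 and 30 junctions in clone 1 and 16, 35 and 39 in clone 2. The Ligase4-/- libraries had 147, 211 and 250 in clone 1 and 76, 84 and 118 in clone 2. As shares of junctions outside the bait window these were 0.229%, 0.290% and 0.444%, then 0.444%, 0.644% and 0.575% in the double mutant, and 1.86%, 2.18% and 2.38%, then 1.90%, 1.45% and 2.16% in Ligase4-/-. The lowest Ligase4-/- library was above the highest double-mutant library. The means of 0.438% ± 0.159 and 1.99% ± 0.328 differed by -1.55 points (95% interval -1.87 to -1.22, exact permutation p = 0.00216, adjusted p = 0.0216), a ratio of 4.54. The whole span differed by -1.98 points.

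Of the 10 stretches tested, 2 passed (20%), both higher in Ligase4-/-. The other was its neighbour, 114589501 to 114599500, with 0.142% ± 0.0975 and 0.399% ± 0.140 (difference -0.257, exact permutation adjusted p = 0.0216), where library ranges overlapped. Both calls held without each of the 12 libraries in turn, with differences of -1.66 to -1.47 and -0.287 to -0.216. The larger also held with the bait carried on through C70T, with bait ends 60 to 80 left out, and after thinning to 5309 junctions per library. With any 1 of the 4 clones left out, where few splits remain, it was -1.70 to -1.40 and did not pass (adjusted p from 0.0536 to 0.119).

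The densest kilobase of this stretch, 114602001 to 114603000, held 346 of its 1034 junctions. It lay 62.3 kb from the bait and 103 kb from the densest kilobase of Sα. The mm9 gene annotation was not used here. In the GRCm38 annotation the 5′ ends of Ighg3 and Igha, the constant-region genes of IgG3 and IgA, are 101 kb apart, and those of Ighg2b and Igha 47.7 kb. Smaller peaks lay 49 and 52 kb from that of Sα (116 and 113 kb from the bait), in stretches with 0.233% against 0.286% and 0.302% against 0.485% of junctions, neither of which passed.

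**Figure D5:**
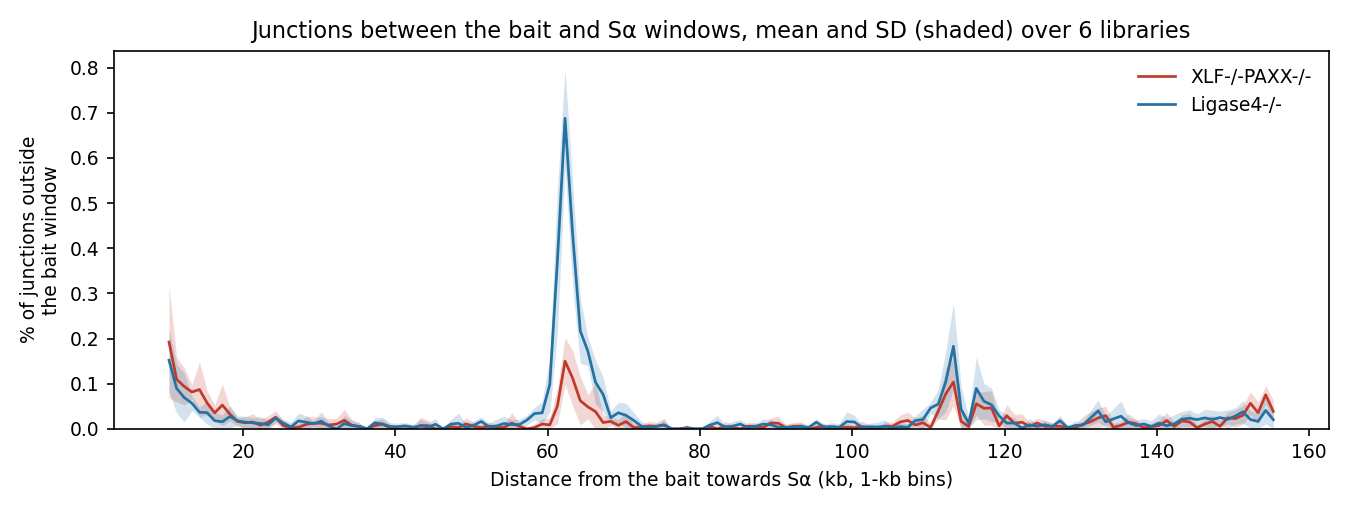
Percent of junctions outside the bait window (y axis) per kilobase between the windows, by distance from the bait towards Sα (x axis, kb), as means with shaded SD over the 6 XLF-/-PAXX-/- and the 6 Ligase4-/- libraries. The peak 62.3 kb from the bait is high in Ligase4-/- and low in the double mutant (1.99% against 0.438% over its 10-kb stretch), while those 113 and 116 kb from the bait differ less.

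Other genotypes gave scale to these shares. The same 10-kb stretch held 0.725% ± 0.133 of junctions outside the bait window in WT (SD, n = 3), 0.176% and 0.347% in clones 1 and 2 of PAXX-/-, and 0.0998% and 0.512% in those of XLF-/-. Its joins had microhomology in 79.1% of 148 double-mutant junctions (exact Clopper-Pearson 95% interval 71.6% to 85.3%) and 76.3% of 886 Ligase4-/- junctions (73.4% to 79.1%). Direct joins were 2.70% and 5.64%, against 25.8% of 62 in WT (15.5% to 38.5%). In clones 1 and 2 they were 0% and 4.44% in the double mutant, and 7.07% and 2.52% in Ligase4-/-. Deletional joins were 73.0% and 62.3%. By clone these were 65.5% and 77.8% in the double mutant, and 58.4% and 70.9% in Ligase4-/-, so clones of 1 genotype also lay apart. These pooled shares carry counting error only and were not tested between genotypes.

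Near the bait, no difference in the joins passed. In the bait window direct joins were at 7.0% ± 0.679 and 6.68% ± 1.10, microhomology joins at 67.0% and 68.1%, and insertions at 26.0% and 25.2%, where WT had 20.1%, 53.4% and 26.5%. Of deletional bait-window junctions, 22.7% ± 0.918 and 23.3% ± 3.45 lay over 3 kb from the bait, against 0.660% in WT. The share over 3 kb away did not pass either. The deletional share in that window was 62.3% and 65.8% in the double-mutant clones. In Ligase4-/- clone 1 it was 57.4% ± 1.60 and in clone 2 66.6% ± 2.19, so the Ligase4-/- clones differed more from each other than the genotypes did.

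Junctions on other chromosomes were unlike those at Sα and varied between libraries. Direct joins were at 14.7% ± 1.50 and 13.5% ± 3.04, closer to the 16.8% of WT than at Sα. Unaligned stretches over 20 bases ranged from 4.99% to 23.1% in double-mutant and from 7.48% to 48.9% in Ligase4-/- libraries, the highest in Ligase4-/- clone 2 library 2. Of 19 chromosomes, 0 passed as a share of these junctions by the exact permutation test (0%), and 2 did before adjustment (10.5%). These were chromosome 1 (6.19% against 8.0%) and chromosome 14 (10.7% against 6.90%), both with adjusted p = 0.0617 and both named after their values were seen.

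Outside chromosome 12, 10 windows of 10 kb held a junction in at least 5 of 6 libraries of both genotypes. Windows held mainly by 1 genotype were left out by this rule and were not tested. The richest, 125950001 to 125960000 on chromosome 8, had 41 junctions in the double mutant and 186 in Ligase4-/-. Ligase4-/- clone 1 libraries had 27, 59 and 78 of them, and clone 2 libraries 7, 6 and 9. Next came 129110001 to 129120000 on chromosome 8 (39 and 100) and 70670001 to 70680000 on chromosome 6 (21 and 67). As shares of junctions on other chromosomes, 0 of the 10 passed by the exact permutation test (0%), with 0 at an unadjusted p under 0.05 and a lowest adjusted p of 0.476.

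The 9 calls were not equally firm. Without 1 library the count of measures that passed ranged from 0 to 14. It was 0 without double-mutant clone 2 library 1 or 3 or Ligase4-/- clone 2 library 3, where 14, 13 and 14 passed before adjustment. It was 3 without double-mutant clone 1 library 1 or Ligase4-/- clone 2 library 2, and 5 without double-mutant clone 1 library 3, double-mutant clone 2 library 2 or Ligase4-/- clone 1 library 2. Without Ligase4-/- clone 1 library 1 it was 14. With 11 libraries the smallest exact permutation p is 0.00216, so after adjustment over 47 measures none can pass alone. Measures pass together or not at all, and a fall in the count need not mean smaller differences. A model with clone as a random block (limma, consensus correlation 0.277) called 2 of 43 measures, the share between the windows (adjusted p = 0.0122) and insertions of 2 to 5 bases (adjusted p = 0.00804). The model used bait alignments as deposited and the same consensus correlation for all measures. With alignments carried on through C70T in the double mutant, neither of these measures passed the exact permutation test after adjustment.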

How the data were processed

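Per the labels, LAM-HTGTS libraries were prepared from genomic DNA by sonication with AflII blocking, with primers at the IgH Iμ locus, and sequenced on an Illumina MiSeq. Bowtie2 and mm9 are named in the submitters' processing notes, while the junction filters were not given in the sources used here. Each line of a deposited table is a junction with its alignment positions, and the 3 libraries of a clone share a table. A library column separated these but gave no replicate number, so their numbers here are names only. The read bases covered by both the bait and the prey alignment gave the joint class: above 0 microhomology, 0 direct, below 0 insertion. The bait window reached 10 kb to each side of the bait, and the Sα window was 20 kb around the densest kilobase over 50 kb away from it. Shares per library were compared 6 against 6 by exact two-sided permutation over all splits, with 95% intervals from inverting that test and Benjamini-Hochberg adjustment within each family (threshold 0.05). The families were 47 measures, 43 bins of 500 bp, 10 stretches of 10 kb, 42 bait ends, 19 chromosomes and 10 recurrent windows. Bins and bait ends were tested where they averaged at least 0.5% and 1% over the 12 libraries, and stretches where they averaged at least 5 junctions. Measures were named by their values. In each family the text names the 5 largest differences past the threshold with both clones of a genotype on the same side, the recurrent windows, and the most frequent shared junctions. Other features are said to be named after their values were seen. Members, measures and lists were chosen with earlier results of these data known. Alternatives left out libraries, clones, identical junctions, long gaps or bait ends, re-read substituted baits, thinned depth, changed window, core or bin width, weighted libraries, or used limma with clone as a block. Lines repeating another junction of the same library made up 0.502% to 1.24%. Intervals of pooled shares are exact Clopper-Pearson and cover counting error only. The tests were tried on simulated data with known differences, where the 12 libraries were independent. No clone or run effect was simulated, so this does not cover libraries nested in clones. Python 3.11.15, numpy 2.4.6, pandas 2.3.3, scipy 1.17.1, matplotlib 3.10.9, R 4.3.3 and limma 3.58.1 were used. Stimulation doses and the genes of windows on other chromosomes were not used here.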

Additional observations from a re-analysis of the deposited data

Results flagged for a closer look

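Single libraries stood apart from the other 5 of their genotype in 7 of 94 groups of 6 examined. This is not far from the 1 in 20 that chance would give. Some of the measures share junctions, so the flags are not independent. The test was Dixon's gap over range above 0.625. Ligase4-/- clone 2 library 2 had the highest share of direct joins at Sα, 8.20%, where the other 5 libraries lay between 5.44% and 6.25%, and of direct joins among deletional core junctions, 8.95%. XLF-/-PAXX-/- clone 2 library 1 had the lowest share outside the Sα core, 11.8% against 14.3% to 15.1%, and the lowest share of deletional junctions beyond the far core edge, 8.02%. XLF-/-PAXX-/- clone 1 library 3 had the lowest share of inversional junctions beyond the near core edge, 18.4%. In XLF-/-PAXX-/- clone 1 library 1, insertions at deletional junctions outside the core were highest, at 24.6%. Ligase4-/- clone 2 library 3 had the highest share of inversional junctions beyond the far core edge, 9.98%.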

How the results depend on the processing

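Over 27 results and 31 settings there were 709 alternative values: 450 kept direction and side of the threshold, 213 lost a call or many of them, 17 gained one and 29 changed sign. Losses with clone means were fixed in advance, as no exact permutation p can be below 0.333 there. The share outside the Sα core was 11.8% to 15.1% in double-mutant and 10.3% to 14.3% in Ligase4-/- libraries and was not among the calls. It kept its direction in all 29 of its alternatives and passed in none. The stretch from 114599501 to 114609500 kept direction in all 24. Where no cause is given, the cause was not tested.

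The measures called fell from 9 to 0 without XLF-/-PAXX-/- clone 1, XLF-/-PAXX-/- clone 2 or Ligase4-/- clone 2, with bait ends up to 60, without or with re-read continued-bait insertions, without bait ends 60 to 80, with C70T read as bait, and with clone means. In these settings other than clone means, 6 to 14 passed the exact permutation test before adjustment. They were 5 after thinning, 2 with limma and 14 without gaps over 20 bases. Stretches between the windows called fell from 2 to 0 without any 1 clone and with clone means, and to 1 after thinning, with bait ends up to 60 or without 60 to 80. Bait ends called fell from 7 to 0 without any 1 clone, with clone means, with bait ends up to 60 or without 60 to 80, and to 2 with C70T read as bait. Leaving out a clone or taking clone means leaves few splits. Calls of Sα bins rose to 2 without continued-bait insertions or bait ends 60 to 80, and of chromosomes to 2 without continued-bait insertions or with identical junctions collapsed.

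The share reaching Sα (10.6 points) lost its call when XLF-/-PAXX-/- clone 1 (13.5) or 2 (7.80) or Ligase4-/- clone 1 (10.4) or 2 (10.8) was left out, with bait ends up to 60 (8.90), without (10.2) or with re-read (10.6) continued-bait insertions, in the 10-kb window (9.70), without bait ends 60 to 80 (9.82), with C70T read as bait (10.6), with clone means (10.6) and with limma (0.64 log2 odds). The microhomology share (-2.53) passed without Ligase4-/- clone 1 (-4.17) and without gaps over 20 bases (-3.37), and changed sign with bait ends up to 60 (2.43), without 60 to 80 (2.00), with C70T read as bait (1.32) and without insertions in the denominator (0.257). The insertion share (2.96) passed without Ligase4-/- clone 1 (4.87) and without gaps over 20 bases (3.88), and changed sign with bait ends up to 60 (-1.53), without 60 to 80 (-1.29) and with C70T read as bait (-0.873). Without Ligase4-/- clone 1 the deletional share passed (-2.50). The direct share changed sign with re-read insertions (0.355). Mean microhomology length (-0.00319) changed sign without XLF-/-PAXX-/- clone 2 (0.0103) or Ligase4-/- clone 2 (0.00294), after thinning (0.0309), with bait ends up to 60 (0.00938) and without 60 to 80 (0.00311). With bait ends up to 60 and without 60 to 80, joins with 3 (0.419 and 0.408) and 4 shared bases (0.493 and 0.170) changed sign, as did insertions outside the core up to 60 (-0.397) and with C70T read as bait (-0.621). Reading C70T as bait, which re-read only the double mutant of the 2 genotypes, also turned bait ends 69 (-0.497), 70 (0.382), 71 (0.115), 72 (0.196) and 74 (0.559). Re-read insertions turned bait end 74 (0.0503).

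Leaving out 1 library at a time gave 8.91 to 12.1 for the Sα share, -0.590 to -0.0374 for direct, -3.28 to -1.66 for microhomology, 2.14 to 3.70 for insertions, -0.0128 to 0.00978 bases for microhomology length, -1.74 to -0.889 for the deletional share and 1.60 to 2.46 outside the core. It gave 0 to 14 measures, 0 to 6 Sα bins, 2 to 2 stretches, 6 to 8 bait ends and 0 to 2 chromosomes called. Of the 12 sets, the Sα share lost its call in 8, the bait-window share in 9, the share between the windows in 5, inversional junctions beyond the near edge in 9, joins with 3 and 4 shared bases in 5 and 8, insertions of 2 to 5 bases in 3, and bait length and insertions outside the core in 4 each.

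No paired analysis was possible because the files do not tell which replicate number each library has. Depth limits the stretches between the windows, where double-mutant libraries held 14 to 39 junctions in the richest, and the recurrent windows on other chromosomes, where they held 3 to 14 in the richest.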

Other observations

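Exact junctions recurred across libraries. In the 12 libraries there were 32846 distinct Sα junctions, counting position, orientation, bait end and overlap together, of which 80.7% were in 1 library, 469 in 6 or more and 4 in all 12. The junction at 114498448, shown above as microhomology junction 1, with a bait end at position 48 and 1 shared base, was in 27 of the 27 libraries of the series on 28 lines. Next came 3 junctions in 20 libraries each, at 114498979, 114499910 and 114500038, of which the first, with 8 shared bases, was in all 6 double-mutant and 6 Ligase4-/- libraries. XLF-/- clone 1 carried a bait substitution of its own, G81A, in 46.9% ± 1.38 of alignments spanning it (SD, n = 3 libraries), which the double-mutant clones had in 0.417% and 0.414% and the Ligase4-/- clones in 0.501% and 0.382%.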
